A study of Mus musculus with 8 samples.

Results

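The integrated stress response is described here through 10 mouse genes: the transcription factors Atf4, Atf5 and Ddit3, the pseudokinase gene Trib3, the glutathione-degrading enzyme gene Chac1, the amino acid synthesis genes Asns, Psat1 and Phgdh, and the secreted factors Fgf21 and Gdf15. They were chosen by symbol. All 10 were found among the 18395 genes of the count table, and all 10 passed the filter on low counts. RNA came from adipose tissue of mice with Kindlin-2 removed from brown adipocytes (KO, 4 libraries) and of control mice (WT, 4 libraries). Kindlin-2 is an integrin-binding adhesion protein encoded by Fermt2. Every mouse had spent 6 hours at 4 °C, so the genotypes are compared in the cold only. The sources used here do not give the Cre driver, the fat depot, or the strain, age and sex of the mice. Nothing in the labels says that the replicates were separate animals, so p-values measure only the spread between these samples.

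The integrated stress response starts when kinases that sense amino acid shortage, misfolded protein, haem shortage, viral RNA or mitochondrial damage phosphorylate the translation factor eIF2. General translation then falls while ATF4 is translated more, and ATF4 switches on genes for amino acid synthesis and transport, tRNA charging and, under lasting stress, the factor CHOP (Ddit3) and its partner Trib3. In brown fat the pathway is best known from mitochondrial stress, where it drives release of the hormones FGF21 and GDF15. ATF4 is controlled largely at translation, so Atf4 mRNA alone does not give the activity of the pathway.

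Library totals were 33672272 to 43253559 counts in WT libraries and 35734373 to 40927141 in KO. Levels are given as CPM, counts scaled to a common library total with trimmed-mean (TMM) factors. Differences between KO and WT are log2 fold changes, also called log2 ratios, from the edgeR model. Fermt2 was lower in every KO library (132 to 192 CPM) than in every WT library (201 to 244 CPM), with a log2 ratio of -0.45 ± 0.14 (SE; edgeR adjusted p = 0.134). All 8 brown adipocyte markers examined, Ucp1 among them, were detected, and their summed level was 7881 to 9907 CPM in WT and 4473 to 7598 CPM in KO. Ucp1 and Cidea made up most of this sum, with means of 5983 and 2495 CPM in WT and 3258 and 2343 CPM in KO. Their log2 ratios were -0.88 and -0.09, and 1 of the 8 markers, Prdm16, was higher in KO. The summed level of 8 general adipocyte markers overlapped between groups, at 19805 to 22504 CPM in WT and 14669 to 21049 CPM in KO. Fabp4 and Lpl made up most of this sum, with WT means of 10467 and 5299 CPM and log2 ratios of -0.16 and -0.18. Only 1 of these 8 markers, Pparg, was higher in KO. Adipoq, Plin1 and Cidec differed by -0.53, -0.79 and -0.54 (edgeR adjusted p = 0.118, 0.0992 and 0.0915). In these every KO library lay below every WT library, as in 7.56% of all genes. In bulk tissue, fewer adipocytes, less RNA per adipocyte and a lower level of Ucp1 itself cannot be told apart. The summed level of 8 endothelial markers was 1244 to 1678 CPM in WT and 1498 to 2586 CPM in KO. A pair of libraries stood apart. In WT replicate 3 the summed level of 8 skeletal muscle markers was 35294 CPM, against 3.85 to 229 CPM in the other 7 libraries. In KO replicate 2 the summed level of 8 interferon response genes was 3571 CPM, against 151 to 331 CPM elsewhere. Each comparison was therefore also made with the 6 libraries that remain without these 2.

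ATF4 acts on promoters through the C/EBP-ATF response element, whose core reads TGATGNAA, where N is any base. A window from 250 bases before to 50 bases after the start site was taken from RefSeq (GRCm38.p6) for each of the 10 genes and searched on both strands. The core was found in 4 of the 10 genes, in 1 window each. These are 4 of the 13 windows of the 10 genes, against 3.97% of 32851 mouse promoter windows of the same length. These 4 windows are shown because they carry the letters by which ATF4 is known to reach its targets, so that the levels below can be read beside them. They are written 5′ to 3′ on the gene's strand with the match in capitals. They lie at chr7:45615441-45615740 (Fgf21, minus strand), chr2:119350992-119351291 (Chac1, plus strand), chr6:7693160-7693459 (Asns, minus strand) and chr2:152344011-152344310 (Trib3, minus strand).
Fgf21: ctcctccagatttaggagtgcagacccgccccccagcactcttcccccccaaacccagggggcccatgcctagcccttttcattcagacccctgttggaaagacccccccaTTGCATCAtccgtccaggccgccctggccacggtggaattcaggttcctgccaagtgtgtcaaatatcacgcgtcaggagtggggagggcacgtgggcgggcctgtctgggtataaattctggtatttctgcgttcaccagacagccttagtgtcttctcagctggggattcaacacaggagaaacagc
Chac1: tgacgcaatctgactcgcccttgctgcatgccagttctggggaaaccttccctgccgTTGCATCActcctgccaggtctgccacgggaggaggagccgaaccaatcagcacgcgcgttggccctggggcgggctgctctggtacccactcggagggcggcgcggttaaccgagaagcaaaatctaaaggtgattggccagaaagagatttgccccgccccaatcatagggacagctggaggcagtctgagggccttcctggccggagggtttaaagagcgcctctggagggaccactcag
Asns: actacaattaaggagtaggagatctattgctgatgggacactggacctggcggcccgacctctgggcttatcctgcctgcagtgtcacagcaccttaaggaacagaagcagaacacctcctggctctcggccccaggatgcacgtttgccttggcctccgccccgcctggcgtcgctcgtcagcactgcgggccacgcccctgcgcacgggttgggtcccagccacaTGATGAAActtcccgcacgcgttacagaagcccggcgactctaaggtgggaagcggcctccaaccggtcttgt
Trib3: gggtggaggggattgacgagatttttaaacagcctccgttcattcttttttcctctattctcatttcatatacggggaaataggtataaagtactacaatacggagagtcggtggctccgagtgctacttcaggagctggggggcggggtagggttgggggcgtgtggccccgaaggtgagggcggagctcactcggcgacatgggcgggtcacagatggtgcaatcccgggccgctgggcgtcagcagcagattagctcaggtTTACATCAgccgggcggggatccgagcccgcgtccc
The match in Fgf21 begins 139 bases before the start site, and with the base before it reads ATTGCATCA, the reverse complement of TGATGCAAT. This 9-base form is present in 0.192% of all windows and in 1 of the 13 windows of the 10 genes. The match begins 193 bases before the start site in Chac1 and 23 bases before it in Asns, and 14 bases after it in Trib3. In Fgf21, Chac1 and Trib3 the core lies on the strand opposite to the gene, and in Asns on the gene's own strand. A match describes letters and is no evidence of binding.

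With KO compared with WT, no member passed the test. The quasi-likelihood test of edgeR called 0 of the 10 members and 0% of 13901 genes with an adjusted p below 0.05, and 0 members and 1.79% of genes with one below 0.10. Limma-voom called 0 of 10 members and 0 of 13901 genes. With sample quality weights limma-voom called 0 of 10 members, against 6.55% of all genes. DESeq2 gave no adjusted p for Chac1 and Fgf21 and called 0 of the other 8, against 8.71% of the 12778 genes to which it gave one. At an unadjusted p under 0.05, edgeR had 1 of 10 members (Gdf15), against 21.5% of all genes. In 0 of 10 members did the KO and WT libraries separate without overlap, against 13.4% of all genes. With 8 libraries, 6 members had a negative and 4 a positive log2 fold change, where 49.5% of all genes were negative, with a median of -0.23 beside 0.00362 for all genes tested. With 6 libraries, 4 were negative and 6 positive, the median was 0.0805, and edgeR again called 0 members, where it called 3.32% of all genes. The signs that differed between these fits were those of Atf5 and Chac1. The groups overlap in all 10 panels of the plot of members by library.

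**Figure D1:**
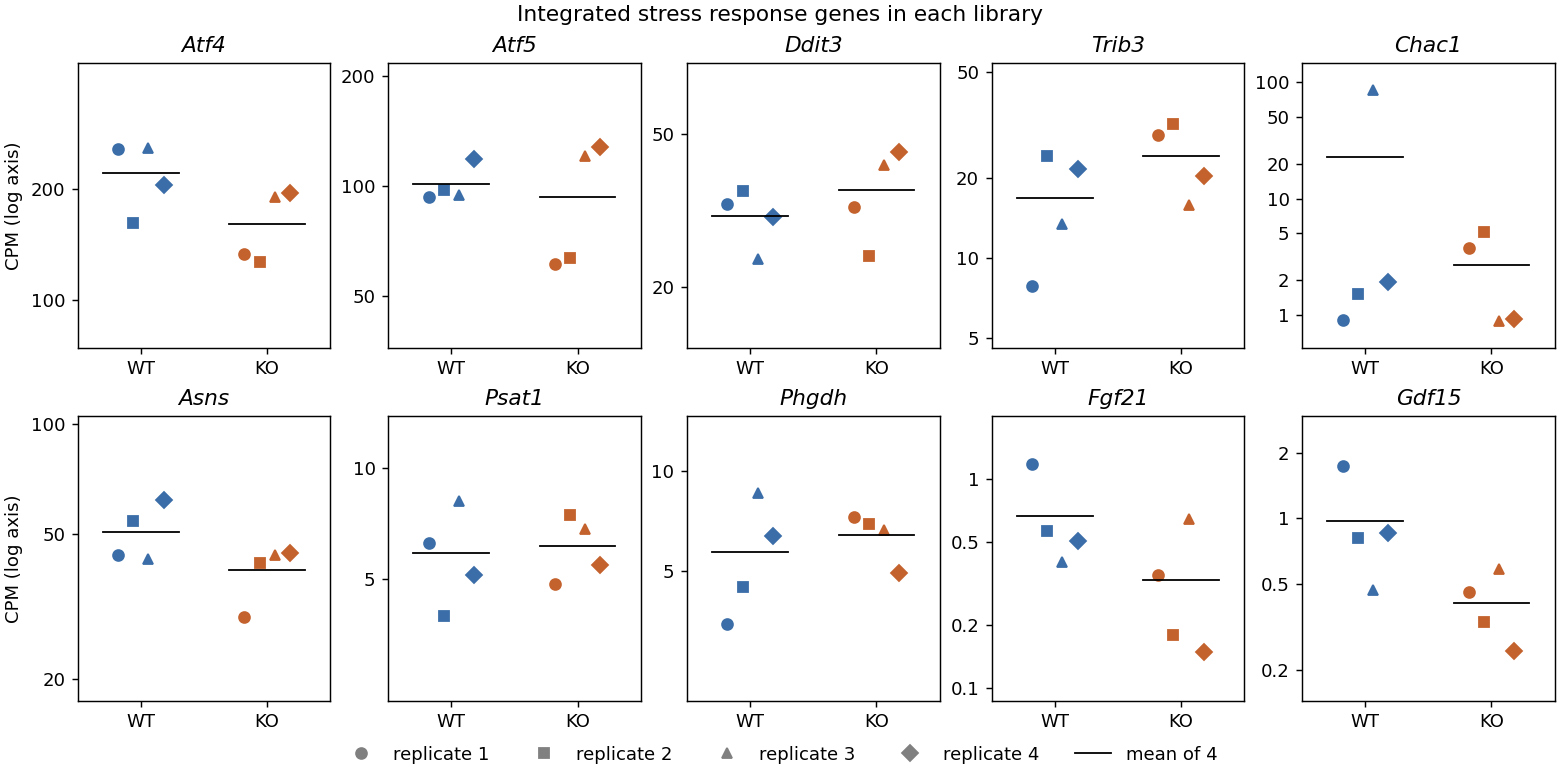
Level of each of the 10 genes in each library, in CPM on log axes that differ between panels. Blue symbols are WT, orange symbols are KO, the shape gives the replicate and the black line is the arithmetic mean of 4 libraries. Chac1 in WT replicate 3 stands at 86.3 CPM, far above the other 7 libraries, and Fgf21 and Gdf15 lie near or under 1 CPM in most libraries.

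Atf4 encodes the central transcription factor of the response. It was measured at 256, 162, 257 and 205 CPM in WT replicates 1 to 4 and 133, 127, 190 and 195 CPM in KO replicates 1 to 4. KO replicates 1 and 2 lay below all WT libraries, while KO replicates 3 and 4 lay between WT replicates 2 and 4. Mean levels were 220 ± 45.7 CPM for WT against 161 ± 36.3 CPM for KO (SD, n = 4), and the log2 ratio was -0.45 ± 0.20 (SE; edgeR adjusted p = 0.233), with a 95% interval from -0.90 to 0.00157. KO replicates 1 and 2 were also the libraries with the lowest summed brown adipocyte markers, 5394 and 4473 CPM, and the part of this in the Atf4 level was not tested. KO against WT gave a log2 ratio of -0.27 ± 0.20 with 6 libraries (edgeR adjusted p = 0.465) and -0.19 with scaling by total counts only, a scaling that raised the median of all genes from 0.00362 to 0.264.

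Atf5 encodes a relative of ATF4 that is tied to mitochondrial protein stress. WT replicates 1 to 4 had 93.5, 97.6, 94.5 and 119 CPM, and KO replicates 1 to 4 had 61.4, 63.5, 121 and 128 CPM. The KO libraries thus fell on both sides of the WT range, KO replicates 1 and 2 below all WT libraries and KO replicates 3 and 4 above them. The SD was 12.1 CPM in WT and 36.0 CPM in KO around means of 101 and 93.5 CPM. This gave a log2 ratio of -0.11 ± 0.25 (SE; edgeR adjusted p = 0.817) and changed sign to 0.00169 with 6 libraries and to 0.13 with scaling by total counts only.

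Ddit3 encodes CHOP, a factor of the late, pro-apoptotic arm. It measured 32.9, 35.5, 23.6 and 30.5 CPM in WT replicates 1 to 4 and 32.3, 24.1, 41.6 and 45.1 CPM in KO replicates 1 to 4. KO replicates 3 and 4 were higher than every WT library, and KO replicates 1 and 2 lay within the WT range. The log2 ratio was 0.22 ± 0.21 (SE; edgeR adjusted p = 0.538). Its 95% interval, from -0.24 to 0.68, corresponds to folds from 0.848 to 1.61. Single libraries moved it: leaving out KO replicate 4 gave 0.0921, KO replicate 3 gave 0.13, WT replicate 3 gave 0.12 and KO replicate 2 gave 0.37. In GENCODE M21, 68 exon bases of Ddit3 lie opposite exons of Mars, the methionyl-tRNA synthetase gene, and 82 exon bases of Atf5 lie opposite exons of Il4i1 and of Nup62. The sources used here do not say whether the counts used strand, so reads from these stretches cannot be assigned to one gene. Another GENCODE M21 entry named Ddit3, absent from the count table, shares 105 exon bases with Ddit3 on the same strand. Reads from that stretch fit both entries whether or not strand was used.

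Trib3 encodes a pseudokinase that is induced by ATF4 and CHOP and restrains them. Trib3 stood at 7.80, 24.1, 13.4 and 21.5 CPM in WT replicates 1 to 4, and 29.0, 31.7, 15.8 and 20.2 CPM in KO replicates 1 to 4. KO replicates 1 and 2 were the highest of the 8 libraries and WT replicate 1 the lowest, with a 3.09-fold range inside WT alone. KO against WT gave a log2 ratio of 0.53 ± 0.36 (SE; edgeR adjusted p = 0.396), and 0.30 without WT replicate 1. Over the 8 libraries Trib3 ran opposite to Atf4, with a Pearson correlation of log2 CPM of -0.89 and a Spearman correlation of -0.88. Without the 2 libraries farthest from the Atf4 median, KO replicates 1 and 2, Pearson's r was -0.82 over 6 libraries. Of 13900 genes, 83 had a lower correlation with Atf4 than Trib3 had. This pair was singled out after its values were seen, and its libraries share the genotype difference, depth and cell makeup.

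**Figure D2:**
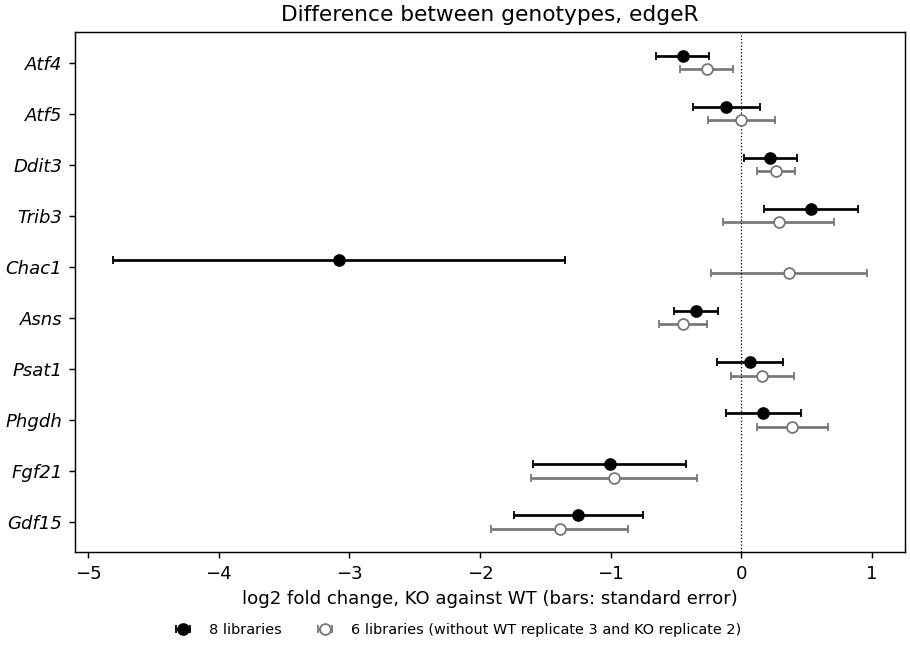
Log2 fold change of KO against WT for each of the 10 genes by edgeR, with bars of 1 standard error. Filled points use all 8 libraries and open points the 6 libraries without WT replicate 3 and KO replicate 2. Chac1 moves from -3.08 to 0.36 between the fits, while the points of the other genes lie close together.

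Chac1 encodes a glutathione-degrading enzyme and is one of the most inducible ATF4 targets. It measured 0.90, 1.5, 86.3 and 1.91 CPM in WT replicates 1 to 4 and 3.76, 5.12, 0.88 and 0.91 CPM in KO replicates 1 to 4. One library, WT replicate 3, held 2578 of the 2732 WT counts, and the other 3 WT libraries held 30, 48 and 76. With all libraries the log2 fold change was -3.08 ± 1.73 (SE; edgeR adjusted p = 0.333), and without WT replicate 3 it was 0.89 (edgeR adjusted p = 0.497). WT replicate 3 is the library with muscle transcripts, as the plot of Chac1 against the muscle markers shows, and the part of these in its Chac1 level was not tested. WT replicate 4 had the next highest muscle sum, 229 CPM, and KO replicate 2 followed with 206 CPM, at Chac1 levels of 1.91 and 5.12 CPM. Among the 7 other libraries, KO replicates 1 and 2 had the highest Chac1 levels.

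Asns encodes asparagine synthetase, the classical target through which amino acid shortage was linked to ATF4. Asns stood at 43.8, 54.2, 42.7 and 62.0 CPM in WT replicates 1 to 4 and 29.6, 41.7, 43.6 and 44.4 CPM in KO replicates 1 to 4. WT replicates 1 and 3 lay among the KO libraries, and WT replicates 2 and 4 lay above them all. Mean levels were 50.7 ± 9.13 CPM for WT against 39.8 ± 6.93 CPM for KO (SD, n = 4), a log2 ratio of -0.35 ± 0.17 (SE; edgeR adjusted p = 0.257). With 6 libraries it was -0.44 ± 0.19 (edgeR adjusted p = 0.192), and with scaling by total counts only it was -0.10.

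Psat1 and Phgdh encode the aminotransferase and the dehydrogenase of serine synthesis. Psat1 was 6.24, 3.98, 8.14 and 5.12 CPM in WT replicates 1 to 4 and 4.86, 7.44, 6.82 and 5.47 CPM in KO replicates 1 to 4. Phgdh was 3.48, 4.48, 8.57 and 6.36 CPM in WT replicates 1 to 4 and 7.26, 6.93, 6.63 and 4.93 CPM in KO replicates 1 to 4. For both genes WT replicate 3 was the highest of the 8 libraries, and the KO libraries lay inside the WT range. This gave a log2 ratio of 0.0670 ± 0.25 for Psat1 (SE; edgeR adjusted p = 0.897, 95% interval from -0.50 to 0.63). For Phgdh it was 0.17 ± 0.28 (SE; edgeR adjusted p = 0.748, 95% interval from -0.47 to 0.81), and 0.43 without WT replicate 3. Transcripts of 17 processed pseudogenes match Phgdh at 90.4% to 98.7% identity over 100 bases or more, and 1 matches Psat1 at 91.0%. The sources used here do not say how reads that fit several genes were counted, so the Phgdh level is uncertain.

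Fgf21 and Gdf15 encode the stress hormones that brown fat can release. Fgf21 had 39, 18, 12 and 20 counts in WT replicates 1 to 4 and 15, 8, 24 and 6 counts in KO replicates 1 to 4. These are 1.17, 0.56, 0.40 and 0.50 CPM in WT and 0.35, 0.18, 0.64 and 0.15 CPM in KO. WT replicate 1 was the highest library, KO replicate 3 was the next, and KO replicates 1, 2 and 4 lay below all WT libraries. The counting error is wide at this depth: the exact 95% Poisson interval was 0.83 to 1.60 CPM in WT replicate 1 and 0.0543 to 0.32 CPM in KO replicate 4, and it covers counting error only. The log2 ratio was -1.01 ± 0.58 (SE; edgeR adjusted p = 0.326), with a 95% interval from -2.32 to 0.30. It was -0.58 without WT replicate 1 and -1.55 without KO replicate 3.

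Gdf15 had 58, 26, 14 and 34 counts in WT replicates 1 to 4 and 20, 15, 22 and 10 counts in KO replicates 1 to 4. These are 1.74, 0.81, 0.47 and 0.85 CPM in WT and 0.46, 0.34, 0.59 and 0.25 CPM in KO. WT replicates 1, 2 and 4 lay above all KO libraries, while WT replicate 3 lay below KO replicate 3. Mean levels were 0.97 ± 0.54 CPM for WT against 0.41 ± 0.15 CPM for KO (SD, n = 4). The log2 ratio was -1.25 ± 0.49 (SE; edgeR unadjusted p = 0.0313, adjusted p = 0.197) with a 95% interval from -2.36 to -0.14. It was -1.39 ± 0.53 with 6 libraries (edgeR adjusted p = 0.157) and -0.81 without WT replicate 1.

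The order of the 4 KO libraries was the same for Fgf21 and Gdf15: replicate 3, then 1, then 2, then 4. In WT both were highest in replicate 1 and lowest in replicate 3. Of the 13900 other genes tested, Gdf15 had the highest Pearson correlation with Fgf21 over the 8 libraries, 0.94, with a Spearman correlation of 0.90. Without WT replicate 1 and KO replicate 4, the 2 libraries farthest from the Fgf21 median, Pearson's r was 0.82 over 6 libraries. The next genes by likeness to Fgf21 were Hoxc5, a homeobox gene, and Rnf4, a ubiquitin ligase, at 0.94 and 0.92. For Gdf15 the closest were Slc22a3, an organic cation transporter, at 0.97, Fgf21, and Ddhd2, a phospholipase, at 0.94. For Atf4 they were Apba3 at 0.98, 1810013L24Rik at 0.97 and Dennd2a at 0.97. Likeness is over 8 libraries that share genotype, depth and cell makeup. None of the 10 members was among the 3 genes most like Atf4.

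**Figure D3:**
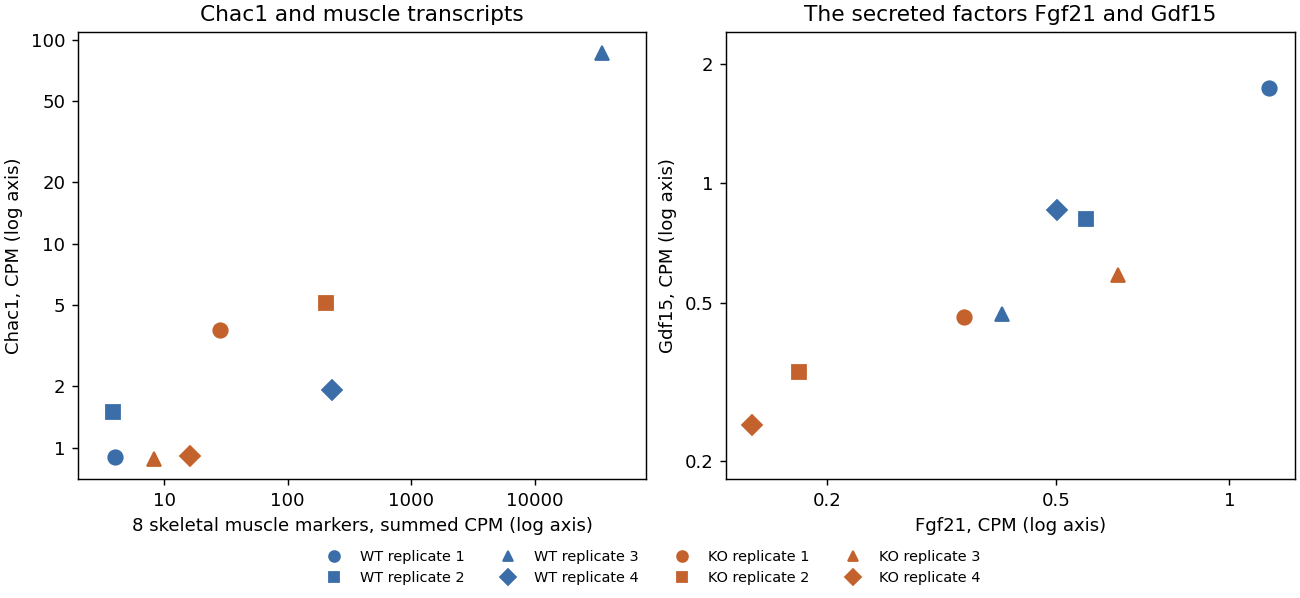
Left, Chac1 in CPM against the summed CPM of 8 skeletal muscle markers in each library. Right, Gdf15 against Fgf21 in CPM. All axes are logarithmic, blue is WT, orange is KO and the shape gives the replicate. WT replicate 3 stands alone at the upper right of the left panel, and on the right the 8 libraries lie along a line from KO replicate 4 at the lower left to WT replicate 1 at the upper right.

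Levels can be set against each other per length of exon (CPM per kilobase, with exon lengths from GENCODE M21). In WT, Atf4 was highest at 93.2 ± 19.4 CPM per kilobase, and its lowest library, 68.5, lay above the highest for Atf5, 59.8. Atf5 averaged 50.8 ± 6.06 CPM per kilobase in WT. Asns and Ddit3 followed at 18.5 ± 3.34 and 17.9 ± 2.97 CPM per kilobase, with ranges that overlapped. Trib3 came next at 7.86 ± 3.52, then Phgdh at 2.30 ± 0.90 and Psat1 at 1.38 ± 0.42 CPM per kilobase (SD, n = 4 throughout). The WT ranges of Trib3 and Phgdh did not overlap, while those of Phgdh and Psat1 did, and so did those of Psat1 and Fgf21. Fgf21 and Gdf15 were lowest at 0.69 ± 0.36 and 0.52 ± 0.29 CPM per kilobase, and their ranges overlapped. Chac1 has no stable place in this order, since it was 52.7 CPM per kilobase in WT replicate 3 and 0.55 to 1.17 in the other 3 WT libraries. In KO the ranges of Atf4 (53.6 to 82.5 CPM per kilobase) and Atf5 (30.8 to 64.2) overlapped, and Trib3 (7.45 to 14.9) reached into the ranges of Ddit3 (14.0 to 26.3) and Asns (10.8 to 16.2).

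The upstream arm was measured through 16 genes for the eIF2 kinases, eIF2, its exchange factor eIF2B, the eIF2 phosphatase and the mitochondrial relay OMA1-DELE1. Of these, 13 were below and 3 above WT levels, and the median log2 ratio was -0.24. EdgeR called 0 of 16 at an adjusted p under 0.05. At an unadjusted p under 0.05, 5 were lower, against 11.1% of all genes in that direction. In 6 of the 16 every KO library was below every WT library, against 7.56% of all genes. With scaling by total counts only, 9 of the 16 were higher and the median was 0.0231, which is below the 0.264 that this scaling gives for all genes. Under that scaling 1 of the 16 had an unadjusted edgeR p under 0.05, in either direction.

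Ppp1r15a (GADD34), the inducible subunit that returns eIF2 to its active form, was 52.5, 25.6, 53.2 and 27.8 CPM in WT replicates 1 to 4 and 17.3, 20.1, 25.4 and 23.8 CPM in KO replicates 1 to 4. The groups did not overlap, although WT replicate 2 and KO replicate 3 differed little. KO against WT gave a log2 ratio of -0.88 ± 0.27 (SE; edgeR adjusted p = 0.139, DESeq2 adjusted p = 0.0240). Ppp1r15b, the constitutive counterpart, had a mean of 177 ± 34.2 CPM in the WT libraries against 122 ± 15.6 CPM in the KO libraries (SD, n = 4), a log2 ratio of -0.53 ± 0.16 (SE; edgeR adjusted p = 0.133, DESeq2 adjusted p = 0.0336). Eif2s3x, the gamma subunit of eIF2, had a mean of 37.3 ± 3.59 CPM in the WT libraries against 27.4 ± 2.59 CPM in the KO libraries. Its log2 fold change was -0.45 ± 0.12 (SE; edgeR adjusted p = 0.112, DESeq2 adjusted p = 0.0271). Oma1, the mitochondrial protease that relays stress to the cytosol, lay between 9.70 and 16.5 CPM in the WT libraries, above the KO span of 6.61 to 8.62 CPM, with a log2 ratio of -0.58 ± 0.20 (SE; edgeR adjusted p = 0.164), or -0.38 without WT replicate 3. DESeq2 called 3 of the 16 lower, against 4.71% of its genes. Limma-voom with quality weights called 1 lower, Eif2s3x (adjusted p = 0.0457), against 3.62% of all genes. Without weights limma-voom called 0 of the 16 and 0 of 13901 genes. EdgeR with 6 libraries called 0 of the 16, against 3.32% of all genes.

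Of the 20 further targets and partners of ATF4 and CHOP that were tested, 10 had positive and 10 negative log2 ratios, with a median of 0.0353, and edgeR called 0. With 6 libraries 6 were higher and 14 lower, with a median of -0.12, and with quality weights 7 were higher and 13 lower. At an unadjusted p under 0.05, 3 were higher and 3 lower, against 10.4% and 11.1% of all genes. Without KO replicate 2 the median was -0.19, and with scaling by total counts only it was 0.30, with 13 of the 20 higher. That scaling gave all genes a median of 0.264, with 10568 of 13901 higher. Ddit4 (REDD1), a brake on mTORC1 that several stresses induce, was 223, 86.3, 203 and 89.2 CPM in WT replicates 1 to 4 and 299, 299, 277 and 311 CPM in KO replicates 1 to 4. All KO libraries lay above all WT libraries, where 5.8% of all genes did, and WT libraries spread far more than the KO libraries (SD of 72.9 against 14.0 CPM). This gave a log2 ratio of 0.98 ± 0.32 (SE; edgeR adjusted p = 0.154, DESeq2 adjusted p = 0.0228). Cth, the cystathionine lyase that makes cysteine, was 1.98 to 3.68 CPM in WT and 0.65 to 1.60 CPM in KO libraries, with a log2 ratio of -1.50 ± 0.36 (SE; edgeR adjusted p = 0.103, DESeq2 adjusted p = 0.00409). Vldlr, a lipoprotein receptor, differed by -0.84 ± 0.25 (SE; edgeR adjusted p = 0.132, DESeq2 adjusted p = 0.0182). Its WT libraries ranged from 131 to 311 CPM, with WT replicate 3 the highest, and its KO libraries from 98.3 to 137 CPM. Jdp2, a bZIP factor of the same family, differed by 0.44 ± 0.14 (SE; edgeR adjusted p = 0.140), with 1 KO library, replicate 2, inside the WT range. Jdp2 passed the threshold with scaling by total counts only (0.71, edgeR adjusted p = 0.0358) and with quality weights (0.56, limma-voom adjusted p = 0.0314). With scaling by total counts only, edgeR called 882 of 13901 genes, 858 of them higher. In all, DESeq2 called 1 gene higher and 2 lower among the 19 of this group with an adjusted p. Of all genes to which it gave one, it called 8.71% in either direction and 4.71% lower. Limma-voom with quality weights called 3 higher, against 2.94% of all genes in that direction. In 6 of the 15 genes of this group with a promoter window the core of the response element was found, Jdp2 and Vldlr among them. Among all tested genes with a window it was found in 302 of 10612.

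Cytosolic aminoacyl-tRNA synthetases charge tRNAs with amino acids and are a standard group of ATF4 targets. Of 12 such genes, 4 lay higher and 8 below WT, with a median of -0.0500. EdgeR and limma-voom called 0 of the 12 and 0 of 13901 genes. DESeq2 called 0 of the 12, against 8.71% of the genes to which it gave an adjusted p. At an unadjusted p under 0.05, 2 were lower, against 11.1% of all genes: Mars at -0.34 ± 0.12 and Gars, the glycyl-tRNA synthetase gene, at -0.35 ± 0.14 (SE; edgeR adjusted p = 0.174 and 0.203). Without KO replicate 1 Gars was at -0.23. Eprs and Cars, for glutamate with proline and for cysteine, differed by -0.32 ± 0.16 and 0.36 ± 0.23 (SE; edgeR adjusted p = 0.274 and 0.366). Eprs was at -0.13 without WT replicate 3, and Cars at 0.19 without WT replicate 1. The core of the response element was found in 5 of the 7 synthetase genes with a promoter window, against 302 of 10612 tested genes with one. In the other groups it was found in 1 of 13 genes of the eIF2 arm, 2 of 14 of the serine group, 0 of 15 of the endoplasmic reticulum group, 0 of 8 of the mitochondrial group and 0 of 4 receptor genes. With scaling by total counts only, 9 of the 12 lay higher, with a median of 0.21, which is below the 0.264 that this scaling gives for all genes.

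Of 15 tested genes for serine, one-carbon and proline metabolism beside Psat1 and Phgdh, 9 lay lower and 6 higher, with a median of -0.0821, and edgeR called 0. Shmt1, the cytosolic serine hydroxymethyltransferase, was 46.3, 58.3, 36.6 and 50.7 CPM in WT replicates 1 to 4 and 34.1, 28.9, 33.1 and 32.6 CPM in KO replicates 1 to 4. The groups did not overlap, and the log2 fold change was -0.58 ± 0.14 (SE; edgeR adjusted p = 0.104). With 6 libraries Shmt1 fell by 0.64 on the log2 scale, past the threshold (edgeR adjusted p = 0.0361). Mthfd1, a cytosolic folate enzyme, and Gcsh, of the glycine cleavage system, differed by -0.35 ± 0.11 and -0.44 ± 0.18 (SE; edgeR adjusted p = 0.145 and 0.197). Mthfd2, the mitochondrial folate enzyme that ATF4 induces, differed by 0.64 ± 0.34 (SE; edgeR adjusted p = 0.283). KO replicate 2 held 7.44 CPM of Mthfd2 and the other 7 libraries 2.28 to 4.33 CPM, and with 6 libraries the log2 fold change was 0.17. With scaling by total counts only, 9 of the 15 genes lay higher, with a median of 0.17, which is below the 0.264 that this scaling gives for all genes.

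Of 18 genes of the unfolded protein response of the endoplasmic reticulum, 10 lay higher and 8 lower, with a median of 0.0497, and edgeR called 0. Manf, a secreted protein of that program, was 22.3 to 25.6 CPM in WT and 23.5, 39.5, 37.1 and 39.8 CPM in KO replicates 1 to 4, with a log2 ratio of 0.57 ± 0.17 (SE; edgeR adjusted p = 0.131, DESeq2 adjusted p = 0.0437). Dnajb9, an endoplasmic reticulum co-chaperone, differed by -0.56 ± 0.19 (SE; edgeR adjusted p = 0.163). Creld2 and Sdf2l1, also of the endoplasmic reticulum, differed by 0.35 ± 0.18 and 0.58 ± 0.39 (SE; edgeR adjusted p = 0.280 and 0.395). Creld2 was at 0.22 without KO replicate 4, and Sdf2l1 at 0.24 without KO replicate 2. With scaling by total counts only, 16 of the 18 lay higher, with a median of 0.31. That scaling gave all genes a median of 0.264, with 10568 of 13901 higher.

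Of 11 mitochondrial chaperones and proteases, 11 lay below their WT mean in KO with TMM scaling, with a median of -0.37, and edgeR called 0. At an unadjusted p under 0.05, 7 were lower, against 11.1% of all genes. In 5 of the 11 the KO libraries all lay below the WT libraries, against 7.56% of all genes. Clpx, the unfoldase of the ClpXP protease, was 193, 233, 231 and 223 CPM in WT replicates 1 to 4 and 181, 149, 138 and 114 CPM in KO replicates 1 to 4. Its log2 fold change was -0.60 ± 0.15 (SE; edgeR adjusted p = 0.104, DESeq2 adjusted p = 0.00991). Dnaja3, a mitochondrial co-chaperone, differed by -0.59 ± 0.17, and Yme1l1, an inner membrane protease, by -0.28 ± 0.0897 (SE; edgeR adjusted p = 0.126 and 0.151, DESeq2 adjusted p = 0.0244 and 0.0494). Trap1, the mitochondrial HSP90, differed by -0.44 ± 0.16 (SE; edgeR adjusted p = 0.177) and with 6 libraries fell by 0.64 on the log2 scale (edgeR adjusted p = 0.0418). DESeq2 called 3 of the 11 lower and limma-voom with quality weights 4, against 4.71% and 3.62% of the genes each tested. With scaling by total counts only, 9 of the 11 lay lower, with a median of -0.11, and 0 of 11 had an unadjusted edgeR p under 0.05. That scaling gave all genes a median of 0.264. Of the 8 brown adipocyte markers 7 also lay lower in KO with TMM scaling, and their part in the levels of the 11 genes was not tested.

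Receptor and co-receptor genes for the 2 hormones, with the related klotho gene Kl, made a list of 7. Gfral, the GDF15 receptor of the hindbrain, was not matched to any row. Kl, a kidney co-receptor other than the one FGF21 needs, did not pass the filter, at 0 to 0.16 CPM. Klb (beta-klotho), the co-receptor that FGF21 needs, was 33.4, 41.7, 24.8 and 42.5 CPM in WT replicates 1 to 4 and 21.3, 20.6, 28.9 and 22.0 CPM in KO replicates 1 to 4. WT replicate 3 lay among the KO libraries and the other 3 WT libraries above them. The log2 ratio was -0.62 ± 0.19 (SE; edgeR adjusted p = 0.138, DESeq2 adjusted p = 0.0409), and with 6 libraries Klb fell by 0.71 on the log2 scale (edgeR adjusted p = 0.0475). Fgfr1, the receptor that pairs with beta-klotho in adipocytes, had a mean of 89.8 ± 19.5 CPM in the WT libraries against 66.6 ± 20.3 CPM in the KO libraries (SD, n = 4), a log2 ratio of -0.43 ± 0.24 (SE; edgeR adjusted p = 0.307). It was -0.27 without WT replicate 3 and -0.26 without KO replicate 4. Fgfr2 differed by -0.58 ± 0.29 (SE; edgeR adjusted p = 0.271), or -0.36 without WT replicate 2. Fgfr3 was 20.2 to 31.4 CPM in WT and 62.1, 13.4, 38.4 and 48.9 CPM in KO replicates 1 to 4. KO replicate 2 lay below and the other KO libraries above the WT range. The log2 fold change of Fgfr3 was 0.68 ± 0.40 (SE; edgeR adjusted p = 0.338), and with 6 libraries it was 0.94 (edgeR adjusted p = 0.0468). It was 0.40 without KO replicate 1. Across the 5 tested receptor genes 3 lay lower and 2 higher, with a median of -0.43.

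**Figure D4:**
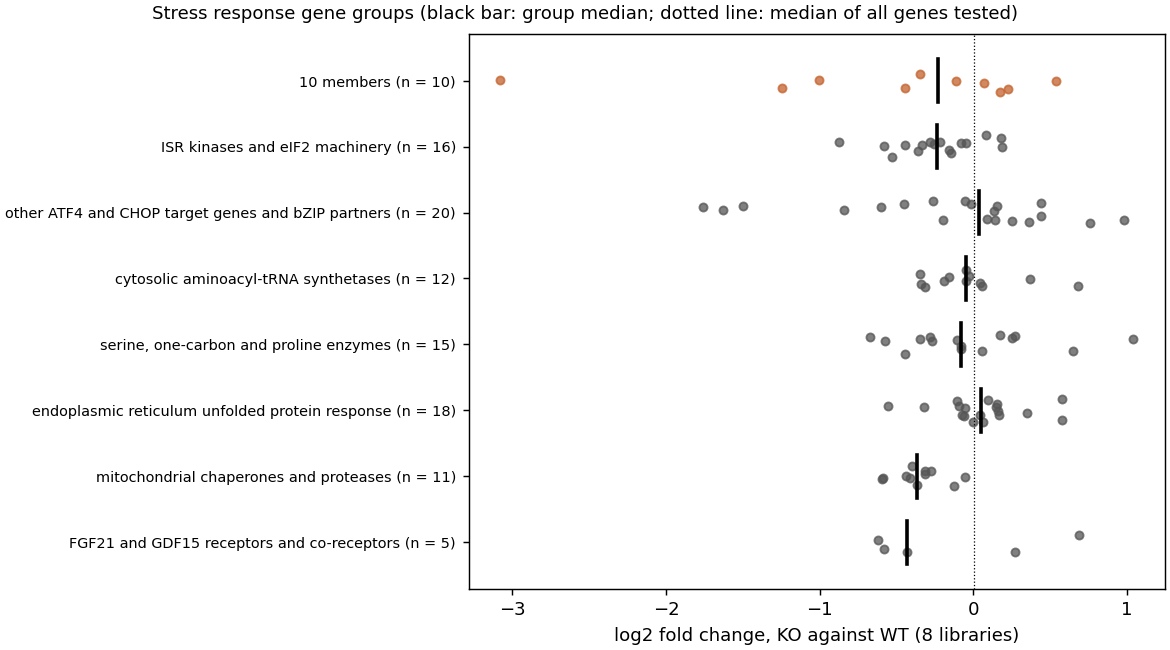
Log2 fold change of KO against WT for the 10 members (orange) and for every tested gene of 7 related groups (grey), with 8 libraries. Vertical positions within a group are spread for legibility, the black bar is the group's median and the dotted line the median of all genes tested. The 11 mitochondrial chaperones and proteases all lie left of zero with TMM scaling (9 of 11 with scaling by total counts only), while the further targets of ATF4 and CHOP lie on both sides.

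Across the genome, 302 tested genes had the response element core in a promoter window. Their median log2 fold change was 0.04, and 44.4% of them lay lower in KO. Of the 10310 tested genes whose windows lacked it, 49.9% lay lower, with a median of 0.000484. The 4 members that carry it had log2 fold changes of -1.01 (Fgf21), -3.08 (Chac1, 0.89 without WT replicate 3), -0.35 (Asns) and 0.53 (Trib3), so they lay on both sides of zero.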

How the data were processed

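Polyadenylated RNA was sequenced from 8 adipose samples, 4 WT and 4 KO, by a kit that incorporates dUTP (per the labels' protocols). As deposited, the table gives whole-number read counts per gene and library. Per the submitters' processing notes the build is GRCm39; aligner, counter and annotation: not given in the sources used here. Symbols came from GENCODE M21 names, found for 18321 of 18395 genes.

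The members and gene lists were chosen with earlier results of these data known. FilterByExpr left 13901 genes. KO was compared with WT by the robust quasi-likelihood F test of edgeR 4.0.16 in R 4.3.3, with TMM scaling, group as the only term, Benjamini-Hochberg adjustment and a threshold of 0.05. SE came from the fold change and F statistic, and correlations used log2 CPM with a prior count of 2. No member was removed by the filter, so the permutation test set for such members was not needed. Genes named beside the 10 members and Fermt2 were up to 4 per list with the smallest edgeR p, and the 3 most correlated with Atf4, Fgf21 and Gdf15; others, markers included, were chosen after their values were seen.

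On simulated counts with 200 changed genes among 13901, edgeR found 3.23% of those changed 1.5-fold, 31.4% of those changed 2-fold and 66.2% of those changed 4-fold, and 2 of its 71 calls were false. DESeq2 1.42.0 found 12.9%, 64.3% and 82.4%, with 39 of 148 calls false, and limma-voom (limma 3.58.1) had 1 of 56 false. Replicates differed by far more than counting noise. Promoter windows were searched in Python 3.11.15 and figures drawn with matplotlib 3.10.9. Alternatives were other scalings, filters and tests, a replicate block, and libraries left out.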

Additional observations from a re-analysis of the deposited data

Results flagged for a closer look

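The highest or lowest library stood apart in 11 of the 108 groups of 4 libraries examined (46 genes and 8 marker lists in each genotype), by a gap to its neighbour that takes most of the group's range. Chance alone marks about 1 group in 20.

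Among the members this held for Chac1 in WT replicate 3, at 86.3 CPM against at most 1.91 CPM in the other WT libraries, and for Atf5 in WT replicate 4, at 119 CPM against 93.5 to 97.6 CPM. Among the related genes, Eprs stood at 140 CPM in WT replicate 3, Sdf2l1 at 2.61 CPM in WT replicate 1, Manf at 23.5 CPM in KO replicate 1 and Klb at 28.9 CPM in KO replicate 3. For Klb the other KO libraries had 20.6 to 22.0 CPM, and for Manf the other KO libraries had 37.1 to 39.8 CPM. The summed marker levels that stood apart were skeletal muscle in WT replicate 3 (35294 CPM) and in KO replicate 2 (206 CPM), interferon response in KO replicate 2 (3571 CPM), T and NK cell in KO replicate 2 (151 CPM) and fibroblast in KO replicate 3 (853 CPM).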

How the results depend on the processing

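Across 20 alternatives no member with an adjusted p was called, and 188 of 198 member values kept their sign. The threshold of 0.10 and the fit without robust estimation leave the fold changes as they are, so those alternatives could not change a sign. Fgf21 and Gdf15 have no value with the stricter filter (1 CPM or more in 4 libraries), which removes them, and DESeq2 gave Chac1 and Fgf21 no adjusted p. The sign changed for Atf5 with total library size only (0.13), quality weights (0.11), without KO replicate 1 (0.0395) or 2 (0.0332) and with 6 libraries (0.00169). It changed for Chac1 without WT replicate 3 (0.89) and with 6 libraries (0.36), for Psat1 without WT replicate 2 (-0.0800) or KO replicate 2 (-0.0375) and for Phgdh without WT replicate 1 (-0.00716). With 1 library left out, values ran from 0.0921 to 0.37 for Ddit3, -0.30 to 0.0395 for Atf5, -3.60 to 0.89 for Chac1, -0.0800 to 0.26 for Psat1 and -0.00716 to 0.43 for Phgdh. Dennd2a and Rnf4 changed sign with total library size only (0.0196 and 0.0871). The cause of these changes was not tested. Genes called by edgeR over all genes, 0 as reported, were 882 with total library size only (858 higher), 1 with no filter, 461 with 6 libraries and 249 at an adjusted p under 0.10. DESeq2 called 1113 and limma-voom with quality weights 911. With 1 library left out the number called was between 0 and 361, the highest without KO replicate 2. Deviations from the group mean correlated at -0.05, 0.04, -0.13 and 0.22 between same-numbered WT and KO replicates 1 to 4. Over all pairs of a WT and a KO library these correlations ran from -0.30 to 0.22. With 4 same-numbered pairs this cannot decide whether they shared a batch, litter or day. With the replicate block edgeR called 0 genes and 0 members, and 2690 genes had an unadjusted p under 0.05, against 2993 without it. Depth limits Fgf21 and Gdf15, with 6 to 58 counts a library.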
